A study of Mus musculus with 42 samples.

Results

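Rosiglitazone, a thiazolidinedione drug that binds and activates the nuclear receptor PPARγ, was compared with its solvent in mesenchymal stromal cells of mouse bone marrow. The comparison used 12 of the 42 samples of the series and 12 of its 24 RNA libraries, chosen by their treatment labels: 6 libraries of cells given rosiglitazone at 100 nM for 48 h and 6 of cells given DMSO, the solvent, at 0.1%. Of the table's 45317 gene entries, 12529 held enough counts to be tested. All groups shared the source: stromal cells of C57BL/6 long bone marrow, bought and grown undifferentiated to passage 9 to 10. The 6 libraries each of cells given AGN194204 (100 nM), a drug-like ligand that activates retinoid X receptors (RXR), or tributyltin (TBT, 50 nM), an organotin that activates RXR and PPARγ, are used below only to set the response to rosiglitazone beside theirs. Nothing in the sources says how many animals the cells came from or whether the libraries of a group were separate cultures, so the p-values measure the spread between these libraries, which may be technical.

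PPARγ works as a heterodimer with RXR on DNA elements made of a pair of AGGTCA-like half-sites spaced by a single base. When it binds a ligand it exchanges corepressors for coactivators and raises transcription of genes for the uptake, binding, storage and oxidation of fatty acids. In the marrow, PPARγ in stromal cells favours the fat cell over the bone cell lineage, and thiazolidinediones are known to increase marrow fat.

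The 12 libraries held 4047841 to 5087215 gene counts each. Gene counts per library were 4267020 ± 225500 (SD, n = 6) under rosiglitazone and 4539100 ± 307900 (SD, n = 6) under DMSO, a difference that missed the threshold in an exact two-sided permutation test (p = 0.11). Between 17526 and 17949 genes had a count under rosiglitazone and between 17889 and 18374 under DMSO (exact two-sided permutation p = 0.00866, adjusted p = 0.0346 over 4 tests of library properties). On the first principal component, which held 14.5% of the variance among the 12 libraries, all DMSO libraries lay on one side and all rosiglitazone libraries on the other. Mesenchymal stromal markers were present, with 19 of 20 list genes tested and a summed level of 3967 to 4159 CPM (counts scaled to a fixed library size) per library, and 1 of them, Cxcl12, was called. Of 16 macrophage and blood cell markers 4 were tested, their list summed to 49.9 to 67.3 CPM, and 7, among them Adgre1, Lyz2, Cd52, Hbb-bs, Hba-a1 and Cpa3, had no count in any of the 12 libraries. Endothelial markers summed to 5.84 to 16.6 CPM and epithelial and neural markers to 2.69 to 10.2 CPM, and no gene of these 3 lists was called.

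Rosiglitazone changed few genes, and most of them by little. With edgeR's quasi-likelihood test and Benjamini-Hochberg adjustment (called means an adjusted p under 0.05), 77 genes were higher (0.615% of those tested) and 53 lower (0.423%), together 1.04%. The counts depend on the settings: they were 97 higher and 102 lower without a filter, 115 and 121 in a fit of the 12 libraries alone, and 113 and 110 with the replicate number as a block. Leaving out 1 library gave 32 (without DMSO replicate 4) to 70 lower genes. At an unadjusted p under 0.05 there were 1413 genes (11.3%). The median called rise was 0.36 on the log2 scale and the median called fall -0.31, and 10 rises and 4 falls reached 2-fold. All 6 rosiglitazone libraries lay beyond all 6 DMSO libraries for 51 of the called rises and 30 of the called falls. Over all tested genes they lay above for 105 (0.838%) and below for 85 (0.678%), so 190 (1.52%) did not overlap. The half-width of the 95% interval of a log2 fold change, before adjustment for many genes, had a median of 0.16 over all genes. A call needed a smaller unadjusted p than such an interval does, with 0.00051 (edgeR) as the largest among called genes. For many genes, changes well above 0.16 could therefore go uncalled with these libraries. When libraries were scaled to their spike-in RNA (ERCC) instead, there were 21 higher and 12 lower genes, all 33 of them among the 130. Of the genes named in the paragraphs that follow, that scaling kept the calls of Fabp4, Car3, Plin4, Pdk4, Angptl4, Lpl, Ech1, Cyp26b1, Aldh1a7, Pde1b, Tmprss11f, Prl2c3, Hrct1, Ccl9, Klf4, Rarb, Tgm2, Zfp607, Itih2, Faim2, Smyd4, Slco4a1 and Ltbp2. It ended those of Plin2, Pnpla2, Lpcat3, Aldh1a1, Pparg, Klf9, Ebf2, Wisp2, Nrxn2, Pde2a, Lctl, Acsbg1, Parm1, Sned1, Tln2, Adora2b, Col4a1, Col6a2, Col6a3, Cxcl12, Rrm2, Nr4a1, Hmox1, Htra3 and Tns1.

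**Figure D1:**
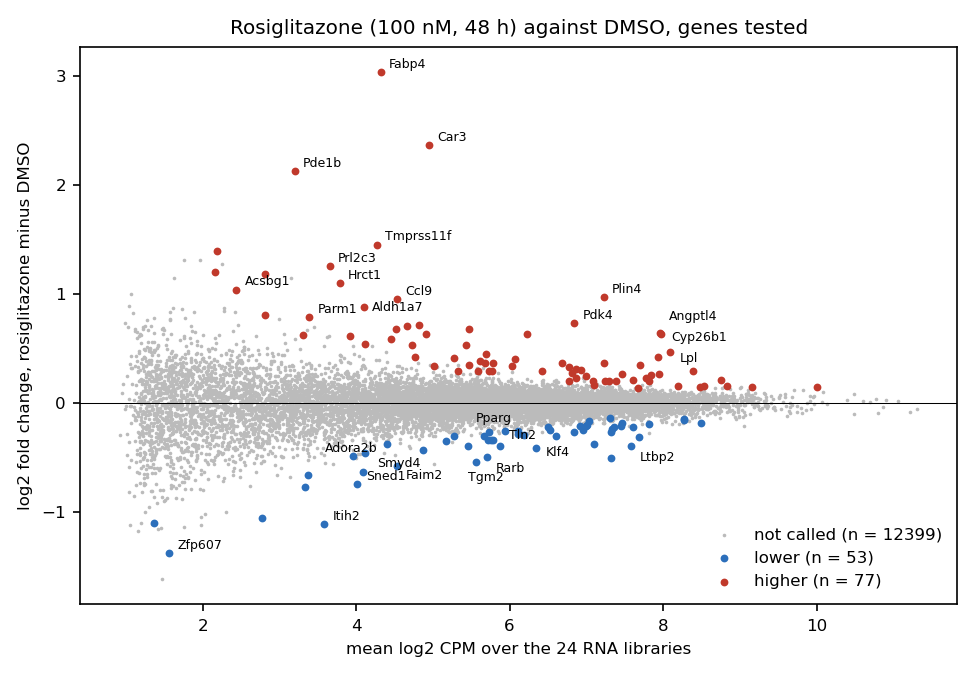
Each point is 1 of 12529 tested genes, with its mean log2 CPM over the 24 RNA libraries on the x axis and its log2 fold change, rosiglitazone minus DMSO, on the y axis. Red points are the 77 genes called higher and blue points the 53 called lower; Fabp4, Car3 and Pde1b stand above a log2 fold change of 2.

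Genes of fatty acid binding and storage were among the rises, with the largest fold change of all called genes at Fabp4. Fabp4, which encodes the fatty acid binding protein of adipocytes and is a textbook PPARγ target, was at 1.37 to 3.57 CPM in the DMSO libraries (median 1.96) and at 16.4 to 21.6 under rosiglitazone (median 17.6). The groups did not overlap, and the fitted change was 8.18-fold (log2 fold change 3.03 ± 0.18 SE, edgeR adjusted p = 5.36e-15). In bulk RNA, more cells that express a gene and more RNA per cell cannot be told apart, for Fabp4 or any gene below. Plin4, a protein of the lipid droplet surface, was at 33.4 to 46.3 CPM under DMSO (median 35.9) and at 64.6 to 81.6 under rosiglitazone (median 75.4), a rise of 0.97 ± 0.09 (log2, SE; edgeR adjusted p = 2.85e-10). Plin2, the coat protein of droplets in most cell types, was at 48.6 to 56.5 CPM under DMSO (median 54.5) and at 57.8 to 78.6 under rosiglitazone (median 71.4). All 6 treated libraries were above all controls for both perilipins, and Plin2 rose by 0.40 ± 0.06 (log2, SE; edgeR adjusted p = 5.7e-05). Among the droplet and lipolysis genes, 3 of 10 tested were called higher and none lower, beside 0.615% and 0.423% of all tested genes. The third was Pnpla2, the triglyceride lipase ATGL, which went from a median of 89.1 CPM to 106 with overlapping groups (log2 fold change 0.22 ± 0.05 SE, edgeR adjusted p = 0.0197). Its call was lost without DMSO replicate 3, DMSO replicate 4, rosiglitazone replicate 5 or rosiglitazone replicate 6, with adjusted p up to 0.0616.

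Pdk4, the kinase that shuts pyruvate out of the mitochondrial dehydrogenase and so favours fatty acid use, was at 49.6 to 57.9 CPM under DMSO (median 51.1) and at 79.8 to 92.2 under rosiglitazone (median 87.4). The groups were apart by more than either group's range, and the rise was 0.73 ± 0.06 (log2, SE; edgeR adjusted p = 1.99e-11). Of 12 genes of pyruvate dehydrogenase control it was the only called one. Angptl4, a secreted inhibitor of lipoprotein lipase, was at 132 to 150 CPM under DMSO (median 143) and at 208 to 228 under rosiglitazone (median 224). Lpl, that lipase itself, was at 157 to 169 CPM under DMSO (median 161) and at 217 to 235 under rosiglitazone (median 223). The enzyme's gene and its inhibitor's gene thus rose in the same libraries, Angptl4 by 0.64 ± 0.04 and Lpl by 0.47 ± 0.04 on the log2 scale (SE; edgeR adjusted p = 1.67e-14 and 2.41e-11). The fatty acid transporter Cd36 had too few counts for the fit. It had 0 counts in all 6 DMSO libraries and 14 in 5 of the 6 rosiglitazone libraries, with at most 4 in one library. Its mean of 0.560 CPM was 5.09-fold the DMSO limit of 0.110 CPM, which stands for 3 counts over the group (exact two-sided permutation p = 0.0152 for Cd36 alone). That fold leaves out the counting error of the 14 rosiglitazone counts, so it is not a lower bound of the change.

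As a list, PPAR target genes had 6 of 25 tested members called higher and 0 lower, beside 0.615% and 0.423% of all tested genes. The 6 were Fabp4, Plin4, Pdk4, Angptl4, Lpl and Plin2. The list's median log2 fold change was 0.12, with 24 of 25 values above 0, and that of all tested genes was 0.00037 with 6292 of 12529 above 0. The remaining 15 of the 40 listed targets fell below the filter, with at most 92 counts over the 12 libraries. Among the latter the droplet fusion gene Cidec had 2 counts under DMSO and 13 under rosiglitazone, and Plin1 had 1 and 1. Of the fatty acid uptake and activation genes, 2 of 13 were called, Fabp4 and Lpl. The DNA just upstream of Plin2 is shown because it carries an AGGTCA half-site and because its promoter bore H3K4me3, the mark of active promoters, in all 4 deposited H3K4me3 libraries of DMSO cells (median fold over input 6.7, as the authors' caller gave it). The 250 bases at chr4:86670060-86670309 (GRCm38, minus strand, RefSeq) end at the Plin2 start, and capitals mark the half-site at position -218, here on the opposite strand.
Plin2 upstream: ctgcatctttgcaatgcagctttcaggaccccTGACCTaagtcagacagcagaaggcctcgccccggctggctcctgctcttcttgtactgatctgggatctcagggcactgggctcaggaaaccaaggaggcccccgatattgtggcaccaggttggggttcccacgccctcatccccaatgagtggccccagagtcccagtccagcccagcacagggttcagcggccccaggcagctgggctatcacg

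**Figure D2:**
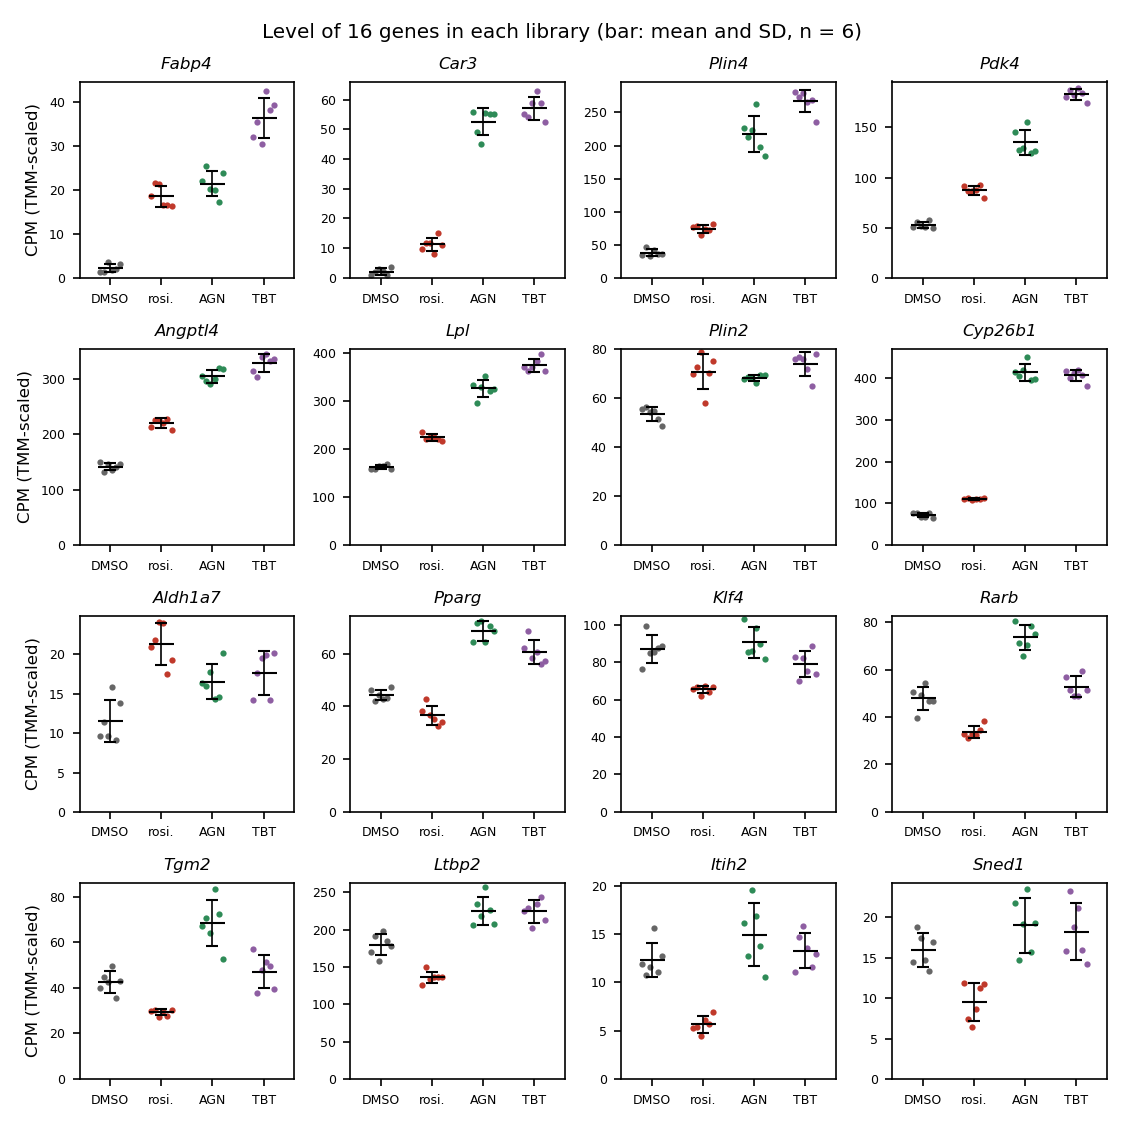
Each panel gives the TMM-scaled CPM of 1 gene on the y axis in each library of the 4 treatments (DMSO, rosiglitazone, AGN194204, TBT), with the mean and SD of 6 libraries. Rosiglitazone libraries of Fabp4, Plin4, Pdk4, Angptl4, Lpl and Cyp26b1 lie above all DMSO libraries, and those of Klf4, Rarb, Tgm2, Ltbp2, Itih2 and Sned1 lie below them.

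Of 20 markers of mature fat cells, 7 were tested and 3 of them called higher, beside 0.615% of all tested genes: Fabp4, Lpl and Car3. The rest had at most 17 counts each over the 12 libraries. For Adipoq, which encodes adiponectin, a single DMSO library had 1 count and the 6 treated libraries had 0, which allows up to 0.117 CPM. Leptin (Lep) and resistin (Retn) had 0 counts in all 12 libraries, and adipsin (Cfd) had 5 under DMSO and 0 under rosiglitazone. The other untested markers went both ways. Cd36 had 0 counts under DMSO and 14 under rosiglitazone, Cidec 2 and 13, and the lipase-like gene Pnpla3 0 and 5. Adrb3 had 10 and 2 and Acvr1c 6 and 2. Slc2a4 had 8 and 9, Rbp4 2 and 4, and Plin1 and Adig 1 and 1 each. Car3, a carbonic anhydrase abundant in fat and muscle, was at 0.936 to 3.61 CPM under DMSO (median 2.22) and at 8.15 to 15 under rosiglitazone (median 11.5). Its groups did not overlap, and it rose by 2.37 ± 0.20 (log2, SE; edgeR adjusted p = 6.04e-11). The tested adipocyte genes had a median log2 fold change of 0.42, beside 0.00037 for all genes. Of 6 thermogenic genes tested, none was called.

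Lipid pathways further from storage gave few or no calls. Ech1, a peroxisomal and mitochondrial isomerase of fatty acid oxidation, went from 74.3 to 91.2 CPM under DMSO (median 81.5) to 98.2 to 111 under rosiglitazone (median 102), without overlap. It rose by 0.33 ± 0.06 (log2, SE; edgeR adjusted p = 0.00112) and was the 1 called gene of 18 in the peroxisome list. None of 20 mitochondrial fatty acid oxidation genes was called, although 17 of their 20 fold changes were above 0 and 7 had an unadjusted p under 0.05 (median log2 fold change 0.10). None of 13 triglyceride synthesis, 17 fatty acid synthesis or 24 cholesterol genes was called, with medians of -0.0027, -0.0039 and -0.03. Unadjusted p-values under 0.05 were found for 0 of the triglyceride, 1 of the fatty acid and 2 of the cholesterol genes. The sterol efflux pumps Abca1 and Abcg1, targets of the RXR partner LXR, showed no change past the test: Abca1 was at 5.35 to 11.1 CPM under DMSO (median 6.61) and 4.33 to 10.2 under rosiglitazone (median 7.17). The 95% interval of its log2 fold change ran from -0.49 to 0.35, and that of Abcg1 from -0.34 to 0.36. Among 10 LXR targets only Lpcat3, a phospholipid acyltransferase, was called, at 0.20 ± 0.04 (log2, SE; edgeR adjusted p = 0.00309) and without overlap between the groups.

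Retinoid genes moved in both directions. Retinoic acid is made by aldehyde dehydrogenases, degraded by CYP26 enzymes and sensed by the retinoic acid receptors (RAR), whose classic targets include Cyp26b1, Rarb and Tgm2. Cyp26b1 was at 64.7 to 77.2 CPM under DMSO (median 72.2) and at 108 to 112 under rosiglitazone (median 111), a rise of 0.63 ± 0.05 (log2, SE; edgeR adjusted p = 7.72e-12). Rarb, a retinoic acid receptor, was at 39.6 to 54.2 CPM under DMSO (median 48.1) and at 31.2 to 38.2 under rosiglitazone (median 33.0). Tgm2, tissue transglutaminase, was at 35.5 to 49.7 CPM under DMSO (median 43.0) and at 27.4 to 30.4 under rosiglitazone (median 30.0). No rosiglitazone library reached the lowest DMSO library for either gene: Rarb fell by 0.50 on the log2 scale (SE 0.08, edgeR adjusted p = 5.01e-05) and Tgm2 fell by 0.54 (SE 0.10, adjusted p = 0.00136). Of 11 tested retinoid genes, 2 were called higher and 2 lower, beside 0.615% and 0.423% of all tested genes. The fourth called retinoid gene was Aldh1a1, which makes retinoic acid, with a log2 fold change of 0.61 ± 0.14 SE (edgeR adjusted p = 0.0164). The Aldh1a1 call was lost without DMSO replicate 1, DMSO replicate 2 or rosiglitazone replicate 6, with adjusted p up to 0.0746. Its close paralog Aldh1a7 rose by 0.88 ± 0.13 (log2, SE; edgeR adjusted p = 4.23e-05), from a median of 10.5 to 21.4 CPM with no overlap. Reads of these paralogs may be shared, so which of them the counts belong to is uncertain.

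Transcription factors of the adipogenic program did not move as a group, with a median log2 fold change of -0.04. Of 24 tested, 1 was called higher and 3 lower, beside 0.615% and 0.423% of all tested genes. Pparg itself was at 42.2 to 47.3 CPM under DMSO (median 43.7) and at 32.7 to 42.6 under rosiglitazone (median 36.1). Its groups overlapped only between the highest treated and the lowest control library, and the change was -0.27 ± 0.07 (log2, SE; edgeR adjusted p = 0.0356). The Pparg call is marginal: it was lost without filtering (adjusted p = 0.0568), with limma-voom (0.0532), and in 9 of 12 fits that left out 1 library. Those were the fits without DMSO replicates 1, 3, 4, 5 or 6 and without rosiglitazone replicates 3, 4, 5 or 6, and over the 12 fits the log2 fold change ran from -0.32 to -0.24 with adjusted p up to 0.121. Klf4, a zinc finger transcription factor, was at 76.5 to 99.2 CPM under DMSO (median 86.4) and at 61.9 to 67.1 under rosiglitazone (median 66.2). Klf4 fell by 0.41 (log2, SE 0.06; edgeR adjusted p = 5.93e-05), with every treated library below every control, and kept its call in every fit that left out a library. Klf9 went from a median of 66.9 to 54.2 CPM (log2 fold change -0.26 ± 0.06 SE, edgeR adjusted p = 0.0284). Ebf2, an early factor of brown and beige preadipocytes, went from a median of 13.1 to 18.2 CPM (0.53 ± 0.13 SE, adjusted p = 0.0337). Each of these 2 lost its call in 8 of 12 fits: Klf9 without DMSO replicates 1, 2, 4 or 5 and rosiglitazone replicates 1, 4, 5 or 6 (adjusted p up to 0.099), and Ebf2 without DMSO replicates 1, 2, 5 or 6 and rosiglitazone replicates 2, 4, 5 or 6 (up to 0.126). Ebf2 also lost its call with limma-voom.

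The other main partners of PPARγ in the adipogenic core were not called. Rxra, its heterodimer partner, was at 185 to 212 CPM under DMSO (median 197) and at 189 to 206 under rosiglitazone (median 200), with a 95% interval of the log2 fold change from -0.08 to 0.08. Cebpa, which maintains Pparg expression in fat cells, was at 12.5 to 18.01 CPM under DMSO (median 15.4) and at 13.7 to 24.3 under rosiglitazone (median 20.1). Its value of 0.37 ± 0.11 (log2, SE) missed the threshold (edgeR adjusted p = 0.109) but passed it without rosiglitazone replicate 4 (0.46, adjusted p = 0.0177). The value of Cebpb was 0.13 ± 0.05 (edgeR adjusted p = 0.3). Among 16 tested inhibitors of adipogenesis 1 was called, Wisp2, a secreted CCN family protein, whose median went from 12.2 to 22.3 CPM. Its groups overlapped slightly, at 16.95 CPM for the highest DMSO library and 16.7 for the lowest rosiglitazone library, and it rose by 0.68 ± 0.13 (log2, SE; edgeR adjusted p = 0.00217).

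Several promoters are annotated for Pparg, and the most downstream of those known drives the isoform largely limited to fat cells. RefSeq gives 3 Pparg starts here, and in the DMSO cells both upstream starts lay in H3K4me3 islands of all 4 libraries (median fold over input 9.72), while the downstream start lay in 0. Both marked starts have an AGGTCA half-site in the 250 bases before them, at position -28 and at position -9 from the start. They are shown because the gene of the drug's own receptor was among the falls; capitals mark the half-site. The first is chr6:115360894-115361143 and the second chr6:115362099-115362348 (GRCm38, plus strand, RefSeq).
Pparg first start: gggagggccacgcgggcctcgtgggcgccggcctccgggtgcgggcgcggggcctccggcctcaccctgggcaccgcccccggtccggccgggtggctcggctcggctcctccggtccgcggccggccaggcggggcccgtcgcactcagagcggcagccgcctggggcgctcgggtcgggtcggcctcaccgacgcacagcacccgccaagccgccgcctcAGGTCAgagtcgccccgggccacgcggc
Pparg second start: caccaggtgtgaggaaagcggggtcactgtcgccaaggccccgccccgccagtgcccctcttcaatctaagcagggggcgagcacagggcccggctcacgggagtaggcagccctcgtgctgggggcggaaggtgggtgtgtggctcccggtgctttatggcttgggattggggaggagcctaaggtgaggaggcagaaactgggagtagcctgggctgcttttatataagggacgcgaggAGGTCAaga

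Other large rises were of genes outside the lipid lists. For the first 7 given here all treated libraries lay above all controls. Pde1b, a calcium-dependent phosphodiesterase of cyclic nucleotides, was at 0.468 to 1.96 CPM under DMSO (median 0.810) and at 3.46 to 7.48 under rosiglitazone (median 4.32), a rise of 2.12 ± 0.32 (log2, SE; edgeR adjusted p = 4.21e-05). Tmprss11f, a membrane serine protease, went from a median of 4.91 to 15.5 CPM (1.45 ± 0.19 SE, adjusted p = 2.76e-06). Prl2c3, a proliferin of the prolactin family, went from a median of 3.59 to 8.92 CPM (1.25 ± 0.16 SE, adjusted p = 3.86e-06), and near-identical proliferin copies make its reads uncertain. Hrct1 went from a median of 5.11 to 11.5 CPM (1.10 ± 0.17 SE, adjusted p = 9.5e-05). The chemokine gene Ccl9 went from a median of 8.84 to 18.8 CPM (0.95 ± 0.13 SE, adjusted p = 4.79e-06). Acsbg1, an acyl-CoA synthetase for very long chains, and Parm1, a mucin-like membrane protein, had less firm calls. Acsbg1 rose by 1.04 ± 0.24 (log2, SE; edgeR adjusted p = 0.0164) and lost its call without DMSO replicate 1 or rosiglitazone replicate 6 (adjusted p up to 0.0727). Parm1 rose by 0.78 ± 0.18 (adjusted p = 0.0164) and lost its call without DMSO replicate 4 or rosiglitazone replicate 4 (up to 0.058). Nrxn2, a neurexin, and Pde2a, a phosphodiesterase of cyclic nucleotides, had larger fold changes than most of these but overlapping groups and low counts, and are given after their values were seen. Nrxn2 was at 0.424 to 1.88 CPM under DMSO and at 1.57 to 4.82 under rosiglitazone (1.39 ± 0.34, log2, SE; edgeR adjusted p = 0.0241), and Pde2a at 0.941 to 2.01 and at 1.80 to 4.98 (1.2 ± 0.28, adjusted p = 0.0164). Neither passed the filter in the fit of the 12 libraries alone. Both passed it in the main fit, which includes the AGN194204 and TBT libraries, where their levels were higher. Their log2 fold changes against DMSO there were 2.20 and 2.81 for Nrxn2 and 1.71 and 1.91 for Pde2a. Each lost its call in 4 of the fits without 1 library. For Nrxn2 these were the fits without DMSO replicates 4 or 6 or rosiglitazone replicates 1 or 2. For Pde2a they were the fits without DMSO replicates 2 or 5 or rosiglitazone replicates 2 or 4. Nrxn2 also lost its call with limma-voom.

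The falls included genes of the extracellular space. Itih2, a heavy chain that binds hyaluronan, was at 10.8 to 15.6 CPM under DMSO (median 11.8) and at 4.44 to 6.97 under rosiglitazone (median 5.53), and fell by 1.11 on the log2 scale (SE 0.16, edgeR adjusted p = 2.16e-05). Sned1, a matrix glycoprotein, was at 13.4 to 18.8 CPM under DMSO (median 15.8) and at 6.41 to 11.8 under rosiglitazone (median 9.96), and fell by 0.75 (SE 0.15, adjusted p = 0.00493). Ltbp2, which binds fibrillin microfibrils, was at 158 to 198 CPM under DMSO (median 182) and at 126 to 150 under rosiglitazone (median 136), and fell by 0.40 (SE 0.06, adjusted p = 8.52e-06). For these 3 genes the groups did not overlap.

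Among intracellular and membrane proteins, Zfp607, a zinc finger gene with close copies, went from a median of 3.17 to 1.34 CPM (log2 fold change -1.38 ± 0.30 SE, edgeR adjusted p = 0.00933). Faim2, an inhibitor of Fas-driven cell death, went from a median of 27.6 to 17.8 CPM (-0.58 ± 0.12, adjusted p = 0.00464). Smyd4, of the SET and MYND domain family, went from a median of 31.9 to 24.2 CPM (-0.44 ± 0.08, adjusted p = 0.00126). All 6 treated libraries lay below all controls for each. Tln2, a talin that links integrins to actin, went from a median of 63.8 to 49.0 CPM (-0.40 ± 0.08, adjusted p = 0.00343). The adenosine receptor Adora2b went from a median of 26.5 to 20.02 CPM (-0.38 ± 0.10, adjusted p = 0.0381). The Adora2b call was lost without filtering (adjusted p = 0.0571) and in 9 of 12 fits without 1 library, those without DMSO replicates 2, 4, 5 or 6 and rosiglitazone replicates 1, 2, 4, 5 or 6, with adjusted p up to 0.148.

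Lists for other fates of stromal cells showed little change. None of 15 osteoblast genes was called, and Runx2, the factor that commits cells to bone, was at 132 to 161 CPM under DMSO (median 153) and at 134 to 156 under rosiglitazone (median 142). The 95% interval of the Runx2 log2 fold change ran from -0.16 to 0.02. None of 3 chondrocyte genes and none of 15 smooth muscle genes was called. Of 27 matrix genes, 3 were called higher, beside 0.615% of all tested genes. All 3 were collagen chains: Col4a1 of basement membranes (0.14 ± 0.03, log2, SE; edgeR adjusted p = 0.00826), Col6a2 (0.26 ± 0.06, adjusted p = 0.0259) and Col6a3 (0.21 ± 0.05, adjusted p = 0.0479). Col4a1 kept its call in every fit without 1 library, and its libraries ran from 889 to 961 CPM under DMSO and from 978 to 1046 under rosiglitazone. Each collagen VI chain lost its call in 9 of the 12 fits: Col6a2 without DMSO replicates 1, 3, 5 or 6 and rosiglitazone replicates 1, 2, 4, 5 or 6 (adjusted p up to 0.0898), and Col6a3 without DMSO replicates 1, 3, 5 or 6 and rosiglitazone replicates 1, 2, 3, 4 or 6 (up to 0.125). Col6a3 also lost its call with RLE scaling, the stricter filter and limma-voom. Cxcl12, the chemokine with which marrow stroma holds blood stem cells, was at 343 to 380 CPM under DMSO (median 356) and at 289 to 331 under rosiglitazone (median 318). It fell by 0.19 on the log2 scale (SE 0.04, edgeR adjusted p = 0.0125), and its call was lost without rosiglitazone replicate 2 (adjusted p = 0.0574).

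Among general cell programs, 1 of 35 cell cycle genes was called, Rrm2, the small subunit of ribonucleotide reductase, at 0.20 ± 0.04 (log2, SE; edgeR adjusted p = 0.0123). Its call was lost without DMSO replicate 2 or DMSO replicate 4 (adjusted p up to 0.0547). The immediate early nuclear receptor Nr4a1 rose by 0.25 ± 0.05 (edgeR adjusted p = 0.00462) as the 1 called gene of 27 nuclear receptors and coregulators. Most of that list went the other way: 4 of 27 values were above 0, with a median log2 fold change of -0.06. At an unadjusted p under 0.05, 9 of the 27 were lower and 1 higher, beside 779 lower and 634 higher of all 12529 tested genes. Hmox1, heme oxygenase, rose by 0.23 ± 0.04 (edgeR adjusted p = 0.00126) as the 1 called of 23 metal and oxidative stress genes. For Nr4a1 and Hmox1 the 6 treated libraries lay above the 6 controls. No gene was called among 75 oxidative phosphorylation subunits (6 at an unadjusted p under 0.05), 30 interferon-induced genes (1), 15 inflammatory genes (2), 20 hypoxia genes (2), 24 endoplasmic reticulum stress genes (2) and 31 Polycomb and H3K4 methylation genes (2). Of the oxidative phosphorylation genes 68 of 75 values were above 0, with a median log2 fold change of 0.05. For all tested genes these were 6292 of 12529 and 0.00037. ERCC scaling moved the median of all genes to -0.04, a shift close in size to this list's median. Unadjusted p-values under 0.05 were rarer in the list (6 of 75) than among all tested genes (11.3%). Ezh2, the Polycomb methyltransferase, was at 146 to 162 CPM under DMSO (median 150) and at 145 to 160 under rosiglitazone (median 151), with a 95% interval of the log2 fold change from -0.08 to 0.09.

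**Figure D3:**
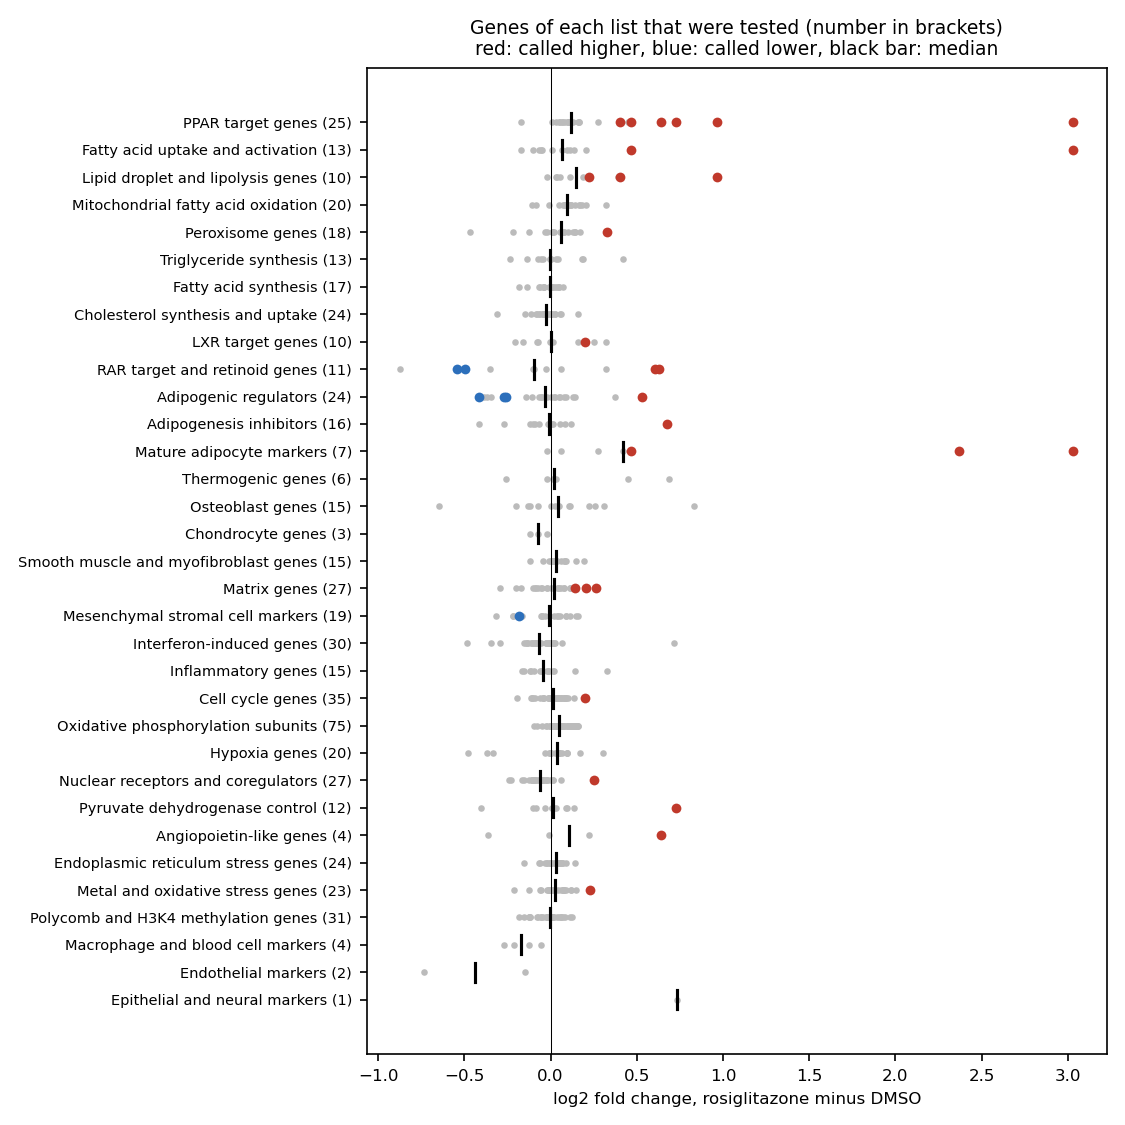
Each row is 1 gene list (number of tested genes in brackets) and each point 1 gene, with the log2 fold change, rosiglitazone minus DMSO, on the x axis. Red points are called higher, blue points called lower and the black bar is the list's median; 6 red points lie in the PPAR target row, and the interferon, Polycomb and synthesis rows hold none.

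The response to rosiglitazone was next set beside those to AGN194204 and TBT. All 3 responses use the same 6 DMSO libraries, so the differences were tested directly between compounds, at the concentrations given above; TBT was at a lower concentration than the others. Rosiglitazone libraries were lower than AGN194204 libraries for 1697 genes (13.5% of those tested) and higher for 1400 (11.2%), 24.7% in all. Against TBT, 1908 genes were lower (15.2%) and 1690 higher (13.5%), 28.7% in all. The balance depends on the scaling: with ERCC scaling 1162 genes were lower and 184 higher than under AGN194204, and 2426 lower and 172 higher than under TBT. That scaling moved the median difference of all genes from 0.0046 to -0.05 against AGN194204 and from 0.0028 to -0.13 against TBT (log2). Of the 25 PPAR targets, 16 were lower under rosiglitazone than under AGN194204 and 1 higher, and 18 were lower than under TBT and 0 higher. With ERCC scaling 14 and 18 were lower and 0 higher. The median log2 fold change of these targets against DMSO was 0.12 for rosiglitazone, 0.43 for AGN194204 and 0.58 for TBT.

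Of the 6 called PPAR targets, Fabp4 and Plin2 came closest to their response to AGN194204. The Fabp4 log2 fold change against DMSO was 3.03 under rosiglitazone and 3.25 under AGN194204, a difference of -0.22 ± 0.12 (SE) that missed the threshold (edgeR adjusted p = 0.194), and under TBT it was 4.00, a difference of -0.97 ± 0.11 (adjusted p = 1.34e-08). Plin2 also showed no difference past the test, at 0.40 under rosiglitazone, 0.35 under AGN194204 and 0.47 under TBT. The differences were 0.05 ± 0.06 from AGN194204 (adjusted p = 0.585) and -0.07 ± 0.06 from TBT (adjusted p = 0.441). The other called targets and Car3 responded less to rosiglitazone than to either compound. Plin4 stood at 0.97 against 2.51 under AGN194204 and 2.81 under TBT, Car3 at 2.37 against 4.58 and 4.70, and Lpl at 0.47 against 1.01 and 1.21. For these 3 genes the adjusted p of the differences was at most 1.12e-14. Cd36 had 14 counts over the rosiglitazone libraries, 24 over the AGN194204 libraries and 80 over the TBT libraries.

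Pparg, Rarb, Tgm2 and Ltbp2 were called lower under rosiglitazone and had values above 0 under the other compounds. Pparg was at 32.7 to 42.6 CPM under rosiglitazone, 64.2 to 72.5 under AGN194204 and 56.0 to 68.4 under TBT, so that its log2 fold change against DMSO was -0.27, 0.63 and 0.46. The difference from AGN194204 was -0.90 ± 0.06 (SE, edgeR adjusted p = 1.1e-13) and that from TBT -0.73 ± 0.07 (adjusted p = 5.14e-11). The same 3 values were -0.50, 0.62 and 0.14 for Rarb and -0.54, 0.68 and 0.14 for Tgm2, of which the TBT values were not called. Both were lower under rosiglitazone than under AGN194204 and TBT by at least 0.64 on the log2 scale (adjusted p at most 1.46e-06). For Ltbp2 they were -0.40, 0.32 and 0.32, with differences of -0.72 from each (adjusted p at most 4.21e-13). Such a pattern was not limited to these genes. Tns1, a tensin of focal adhesions and an example chosen after its values were seen, had -0.32, 0.47 and 0.21. Cyp26b1 rose under all 3, by 0.63, 2.53 and 2.50, and the values of Abca1 were -0.07, 4.78 and 4.55. Those of Klf4 were -0.41, 0.05 and -0.15, and it was lower under rosiglitazone than under AGN194204 (-0.47 ± 0.06, adjusted p = 4.14e-07) and TBT (-0.27 ± 0.06, adjusted p = 0.00163).

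Aldh1a7, Acsbg1 and Rrm2, given as examples, were not called lower under rosiglitazone than under either compound. The log2 fold change of Aldh1a7 was 0.88 under rosiglitazone, 0.51 under AGN194204 and 0.60 under TBT; it was higher than under AGN194204 by 0.36 ± 0.13 (log2, SE; edgeR adjusted p = 0.0293), and its difference from TBT of 0.28 missed the threshold (adjusted p = 0.0883). For Acsbg1 these were 1.04, 0.51 and 1.45, with neither difference past the threshold (adjusted p = 0.0886 and 0.131). Rrm2 was higher under rosiglitazone than under AGN194204 by 0.18 ± 0.04 (adjusted p = 0.00217) and than under TBT by 0.15 ± 0.04 (adjusted p = 0.0112). With ERCC scaling these differences of Aldh1a7 and Rrm2 were not called (Aldh1a7 0.31 from AGN194204, adjusted p = 0.198; Rrm2 0.13 and 0.01, adjusted p = 0.345 and 0.927). At the level of lists, 31 of 35 cell cycle genes were higher under rosiglitazone than under AGN194204 and 30 higher than under TBT, with 0 lower in each, beside 11.2% and 13.5% of all genes higher. With ERCC scaling 1 and 0 of the 35 were called higher and 0 lower, so the cell cycle calls rest on the scaling. All 30 interferon-induced genes were lower under rosiglitazone than under AGN194204 and than under TBT with either scaling. With TMM scaling 13.5% and 15.2% of all tested genes were. The list's median log2 fold change against DMSO was -0.07 for rosiglitazone, where no member was called, 0.73 for AGN194204 and 0.66 for TBT. Angptl7 was not called against DMSO (-0.36 ± 0.13, edgeR adjusted p = 0.232) and was higher under rosiglitazone than under AGN194204 by 1.22 ± 0.16 (adjusted p = 1.82e-07) and than under TBT by 1.37 ± 0.16 (adjusted p = 1.98e-08). Its log2 fold change against DMSO was -1.58 under AGN194204 and -1.73 under TBT.

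**Figure D4:**
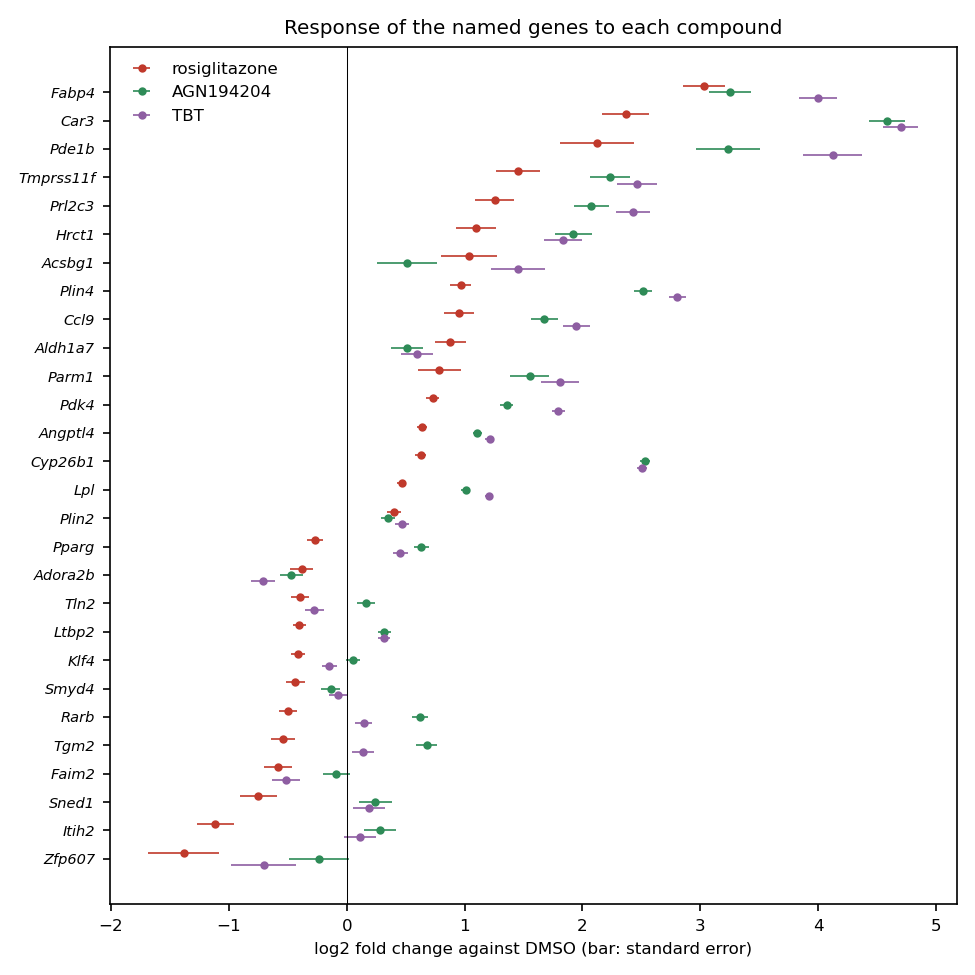
The log2 fold change against DMSO (x axis, bars are standard errors of the fit) of 28 genes under rosiglitazone, AGN194204 and TBT; all 3 use the same 6 DMSO libraries. Points of Plin2 lie close together, as do the rosiglitazone and AGN194204 points of Fabp4, whose TBT point is higher. Pparg, Rarb, Tgm2 and Ltbp2 are below 0 for rosiglitazone and above 0 for the other compounds.

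The promoters of the called genes were looked up in the deposited H3K4me3 and H3K27me3 islands of DMSO cells, 4 libraries per mark; H3K27me3 marks Polycomb-repressed chromatin. RefSeq promoter entries (GRCm38) were found for 9028 of 12529 tested genes and for 99 of the 130 called genes, 59 higher and 40 lower. Fabp4, Angptl4, Lpl, Car3 and Tgm2 were among the called genes without an entry, so their promoters were searched neither for marks nor for half-sites. H3K4me3 lay on the promoter in at least 3 of 4 libraries for 52 of the 59 higher genes (88.1%), 37 of the 40 lower genes (92.5%) and 95.5% of all tested genes with an entry. H3K27me3 lay on 2 of 59 higher genes (Pde1b and the serine protease gene Htra3), 1 of 40 lower genes (the transporter gene Slco4a1) and 4.28% of all. These genes and the one below are named for their marks and sequence, after their values were seen. Pde1b bore both marks in all 4 libraries at its first start. The Htra3 call was lost with limma-voom and without DMSO replicate 5, rosiglitazone replicate 4 or rosiglitazone replicate 5 (adjusted p up to 0.0798). Most called genes with an entry thus carried the active mark in solvent-treated cells, as most tested genes with an entry did.

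The 250 bases before each start were searched on both strands for the half-site AGGTCA and for repeats of it spaced by 1 base. AGGTCA was found for 6 of 59 higher genes (10.2%), 6 of 40 lower genes (15%) and 12.4% of all 9028, shares close to one another. The exact repeat AGGTCANAGGTCA was found for 0 of the called genes with an entry and 0.0332% of all. These shares do not cover Fabp4, Angptl4, Lpl, Car3 and Tgm2, which had no entry. The looser AGGNCANAGGNCA, which includes the exact repeat, was found for 22 genes (0.244%), of which 1 was called: Lctl, a relative of lactase. Lctl was at 0.848 to 2.71 CPM under DMSO (median 1.72) and at 1.97 to 5.07 under rosiglitazone (median 4.14), with overlapping groups (log2 fold change 1.18 ± 0.28 SE, edgeR adjusted p = 0.0205). Its call was lost with limma-voom (adjusted p = 0.0645) and without DMSO replicates 1 or 6 or rosiglitazone replicates 1, 2 or 6 (up to 0.0738), and its start lay in no H3K4me3 island. The sequence at chr9:64116897-64117146 (GRCm38, plus strand, RefSeq) is shown as the only called match; capitals mark a half-site and, nearer the start, the repeat on the opposite strand.
Lctl upstream: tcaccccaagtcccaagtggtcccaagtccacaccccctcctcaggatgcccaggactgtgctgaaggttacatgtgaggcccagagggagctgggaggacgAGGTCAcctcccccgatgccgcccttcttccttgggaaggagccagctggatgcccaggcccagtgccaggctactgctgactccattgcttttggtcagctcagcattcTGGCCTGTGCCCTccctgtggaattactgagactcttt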

How the data were processed

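RNA was sequenced from the 24 libraries of 4 treatments as strand-specific libraries with ERCC spike-ins, per the labels' protocols. Raw counts of reads, 1 row per gene symbol, are as the authors deposited them. The table has 45317 rows for genes, 92 for ERCC RNAs and 5 for reads of no gene; library sizes and tests used the gene rows alone, and reads outside genes were 21.7% to 23.8% of counts in the 12 libraries compared. Per the submitters' processing notes, STAR, FastQC, SAMtools and DESeq2 were used (no versions there) with builds mm10 and GRCm38. For the counting of reads and its use of strand, details are not given in the sources used here; overlapping or near-identical genes are therefore uncertain. The sequencing run of each library is not given either, so no within-run values were made.

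The test was edgeR's quasi-likelihood test (version 4.0.16, R 4.3.3) after filterByExpr and TMM scaling, with all 24 libraries in 1 fit and treatment as the only term, so that the 4 groups share the estimated spread (common biological coefficient of variation 5.24%). P-values were adjusted by Benjamini-Hochberg over all 12529 genes, with 0.05 as the threshold. The smallest ratio of chi-square to degrees of freedom between libraries of a group was 1.34, so no pair agreed within sampling noise. CPM are TMM-scaled (summed list levels use library totals), and limits for 0 counts use 3 counts over a group and cover counting error only. The fit was checked on simulated data. Alternatives were RLE, ERCC and library-total scaling, no filter, CPM of at least 1 in 6 libraries, DESeq2 1.42.0, a replicate block, the 12 libraries alone, leaving out each library, and limma-voom (limma 3.58.1), the last chosen after seeing the data.

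For the histone marks the authors deposited islands per library with a fold ratio of ChIP over input, made with SICER per the submitters' processing notes; an island had to overlap the RefSeq promoter window of 300 bases, of which 250 lie before the start, and that ratio is the authors' own.

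Genes were named by a rule: the 12 largest rises and 12 largest falls among called genes whose groups did not overlap (mean log2 CPM 1 or more, no predicted name); up to 3 members, by adjusted p, of each of 33 lists with a called member; and Pparg, Rxra, Cebpa, Cebpb, Fabp4, Adipoq, Plin2, Lpl, Cd36, Angptl4, Pdk4, Abca1, Abcg1, Car3, Runx2 and Ezh2. The fourth called retinoid gene Aldh1a1 and genes below the filter that are given by their counts were added after their values were seen; 1 gene the rule picks is not reported here. The comparison, its lists and the rule were chosen with earlier results of these data known. The lists overlap, and Fabp4, for example, is in 3 of them.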

Additional observations from a re-analysis of the deposited data

Results flagged for a closer look

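In groups of 6 libraries, a library was singled out when its distance to the nearest other library was too large a part of the group's range by Dixon's 95% critical value. Of 134 groups of the tested named genes, 8 (5.97%) held such a library, and chance alone gives about 1 in 20. The 8 fell on 7 libraries, at most 2 on any one. Among genes called higher, Pde1b reached 7.48 CPM in rosiglitazone replicate 1, above the next library at 4.95, and Tmprss11f was at 10.2 CPM in rosiglitazone replicate 4, below the next at 14.7. Prl2c3 reached 4.47 CPM in DMSO replicate 5, above the next at 3.82. Ebf2 was at 8.65 CPM in DMSO replicate 1, below the next at 12.7, and Col6a2 was at 164 CPM in rosiglitazone replicate 3, below the next at 187. Among genes called lower, Adora2b reached 31.0 CPM in DMSO replicate 2, above the next at 26.8. Of genes not called, Wnt10b reached 11.8 CPM in rosiglitazone replicate 5 (next 9.61) and Cenpe reached 374 CPM in DMSO replicate 1 (next 345). Leaving out the singled-out library kept the calls of Pde1b, Tmprss11f, Prl2c3 and Col6a2. It ended those of Ebf2 (log2 fold change 0.45, edgeR adjusted p = 0.112) and Adora2b (-0.33, adjusted p = 0.148).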

How the results depend on the processing

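Against DMSO, 77 genes were higher and 53 lower, and 0 of these 130 changed sign in any of the 21 other settings that tested them. The fit of the 12 libraries alone tested 128 of the 130. Of all 130 genes, 43 higher and 23 lower kept their calls in all 12 fits that left out 1 library. In every setting 21 higher and 11 lower genes kept theirs. Leaving out 1 library gave 59 to 78 higher and 32 to 70 lower genes; the lower count fell by more than 1.5 times without DMSO replicate 2 (33), DMSO replicate 4 (32), rosiglitazone replicate 3 (34) or rosiglitazone replicate 5 (34). ERCC scaling gave 21 higher and 12 lower and moved the median of all genes from 0.00037 to -0.04 (log2); ERCC counts per 100 gene counts were 0.376 to 0.502 under DMSO and 0.416 to 0.474 under rosiglitazone (exact two-sided permutation p = 0.604). Under ERCC scaling 184 genes were higher than under AGN194204 (1400 with TMM) and 172 higher than under TBT (1690 with TMM). Without a filter 97 were higher and 102 lower, and in a fit of the 12 libraries alone 115 were higher and 121 lower, so that the share of higher calls went from 59.2% to 48.7% in each; the cause was not tested. The fit with the replicate number as a block gave 113 higher and 110 lower (50.7% higher) and kept all 130 calls. Whether the numbers pair the libraries is not known. Deviations of same-numbered rosiglitazone and DMSO libraries correlated at -0.0221 to 0.0322, and no rosiglitazone library correlated best with its own number. Yet replicate 2 held the most gene counts in each treatment (5087215 under DMSO, 4601891 under rosiglitazone, 4877089 under AGN194204 and 5347365 under TBT). DESeq2 gave 89 higher and 68 lower, limma-voom 69 and 49, and RLE, library totals and the stricter filter 75 to 79 and 47 to 58. In the fit of 12 libraries the filter left no epithelial or neural marker, so that list has no value there.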

Other observations

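Of the 77 rises, 21 were called in every setting tried. Those outside the naming rule are given here, chosen after their values were seen, and they included enzymes of detoxification and amine metabolism. Mgst1 and Mgst3, microsomal glutathione transferases, went from medians of 27.2 to 38.7 CPM and of 12.0 to 18.8 CPM, with no overlap between the groups (log2 fold change 0.53 ± 0.09 and 0.67 ± 0.12 SE, edgeR adjusted p = 0.000274 and 0.000608). Maoa, monoamine oxidase A, was at 144 to 163 CPM under DMSO (median 151) and at 180 to 216 under rosiglitazone (median 192), a rise of 0.35 ± 0.05 (adjusted p = 6.27e-06). The guidance factor gene Sema3e rose by 0.71 ± 0.12 (adjusted p = 0.000173), and the proliferin gene Prl2c2 by 0.70 ± 0.10 (adjusted p = 4.21e-05), beside its near-identical copy Prl2c3.

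Of the 53 falls, 11 were called in every setting, and those outside the rule included Itgb2, the integrin chain of white blood cells, which went from 4.45 to 7.68 CPM under DMSO (median 6.57) to 2.21 to 4.66 under rosiglitazone (median 2.86), with overlapping groups (log2 fold change -1.06 ± 0.20 SE, edgeR adjusted p = 0.00126). The macrophage and blood cell list summed to 57.8 to 67.3 CPM under DMSO and 49.9 to 61.7 under rosiglitazone, with 7 of its 16 markers at 0 in all 12 libraries, and its part in the Itgb2 values was not tested. Slco4a1, an organic anion transporter, went from a median of 14.5 to 7.28 CPM (-0.78 ± 0.16, adjusted p = 0.00494), and Gas7, a cytoskeletal adaptor, from 156 to 114 CPM with no overlap (-0.38 ± 0.06, adjusted p = 0.000169).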
